A study of Macaca fascicularis with 4 samples.

Results

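CDX1, CDX2, CDX4, T and TBX6 are transcription factor genes of the caudal end of the vertebrate embryo, and they were described across 4 single-cell libraries of cynomolgus monkey (Macaca fascicularis) embryos. The 5 genes were taken by symbol from the 26223 gene rows of each count table, where they carry the identifiers gene11638 (CDX1), gene27147 (CDX2), gene31900 (CDX4), gene7047 (T) and gene30575 (TBX6). Of 27545 cells in all, 5485 held at least 1 transcript molecule, counted as a unique molecular identifier (UMI), of any of the 5.

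The trunk and tail of the embryo are laid down in sequence from a growth zone at the caudal end, whose neuromesodermal progenitors give rise both to spinal cord and to the mesoderm that becomes somites. The CDX genes encode caudal-type homeodomain proteins that act downstream of WNT and FGF signals, support axis elongation and activate HOX genes of the trunk, and CDX2 is also a lasting identity factor of the hindgut. T (brachyury) is needed for mesoderm formation and for the notochord, the midline rod that patterns the neural tube, and TBX6 commits progenitors to presomitic mesoderm, in mouse by repressing SOX2.

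The study followed the origin of the gonad's somatic cells, with 1 library for each of 4 stages. These were embryonic days 24, 28, 31 and 37 (E24 to E37), equal to 11, 13, 14 and 18 in the Carnegie system. Tissue was dissociated with trypsin, and the dissections differed. At E24 the extraembryonic membranes, the heart with everything in front of it, and the caudal growth zone with the primitive streak were cut away, so that the trunk remained. At E28 and E31 the urogenital ridge was dissected out with its mesonephros, coelomic epithelium and some mesentery, without tissue from the hindlimb down. At E37 the piece was mostly gonadal ridge, with some mesonephros, mesentery and presumed adrenal attached. The title of the E24 library gives more than 1 embryo code, and since all its barcodes end alike it was treated as 1 sample. The libraries kept 10639, 4964, 6654 and 5288 cells, with median depths of 9990, 11317, 9764 and 6670 UMIs per cell, and pairs of libraries shared 37 to 111 cell barcode sequences. No stage has a second library, so no test was run. Every interval below is a 95% interval that covers counting error only, and stage, embryo and dissection cannot be told apart. The protocols name both v2 chemistry and v3 kits without saying which library had which, so the kit could also differ with stage.

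All 5 genes were abundant at E24 and sparse at the 3 later stages. CDX2 stood at 82.1 CPM (UMIs summed over the cells, per 1000000; interval 80.4 to 83.8) at E24, 0.310 CPM at E28, 0.513 CPM at E31 and 0.0498 CPM at E37. CDX4 had levels of 45.8 CPM (44.6 to 47.1) at E24, 2.97 CPM at E28, 3.80 CPM at E31 and 0.299 CPM at E37. CDX1 had levels of 28.6 CPM (27.6 to 29.6), 1.72 CPM, 1.28 CPM and 0.672 CPM at the same 4 stages. Each CDX gene was thus highest at E24 and lowest at E37. T stood at 10.98 CPM (10.4 to 11.6) at E24, 0.229 CPM at E28, 0.125 CPM at E31 and 0.0996 CPM at E37. TBX6 stood at 11.01 CPM (10.4 to 11.6) at E24, 1.503 CPM at E28, 0.776 CPM at E31 and 0.996 CPM at E37. TBX6 was the only one of the 5 not lowest at E37, although neither its E37 and E31 levels nor those of T differed beyond counting error.

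**Figure D1:**
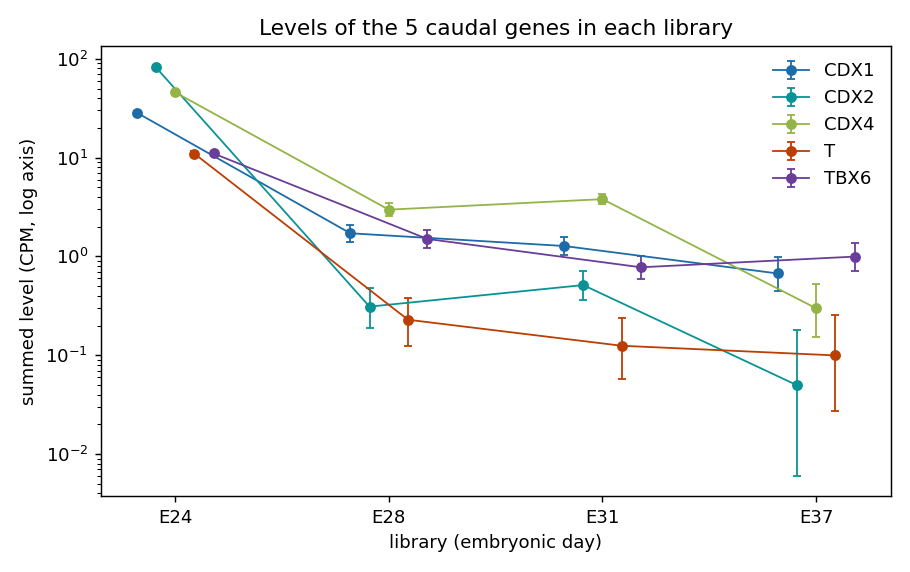
Summed level of each gene (CPM, log axis) in the 4 libraries, in order of stage. Points are single libraries and bars are 95% counting intervals. All 5 genes lie above 10 CPM at E24 and below 4 CPM at the 3 later stages.

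A gene was counted as apart between 2 groups at 2-fold or more with at least 50 UMIs in both together. By this rule all 5 genes were lower at E28 than at E24, where 6.06% of all 16137 genes measured were lower. The fall was 264-fold for CDX2 (169 to 439), 48.0-fold for T (28.5 to 88.0) and 16.7-fold for CDX1 (13.7 to 20.4). It was 15.4-fold for CDX4 (13.3 to 17.97) and 7.33-fold for TBX6 (5.93 to 9.15). Behind the E28 levels stand 19 UMIs of CDX2, 14 of T, 105 of CDX1, 182 of CDX4 and 92 of TBX6.

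Between E28 and E31, which share a dissection, none of the 4 genes with enough UMIs was apart by 2-fold, where 3.06% of genes were lower and 1.23% higher. TBX6 came nearest, with an E31 to E28 ratio of 0.516 (0.364 to 0.728). CDX4 had a ratio of 1.28 (1.06 to 1.55), and CDX1 one of 0.743 (0.556 to 0.993). The ratio for CDX2, 1.65 (0.926 to 3.04), had an interval that includes 1, and T had 9 UMIs at E31 and 14 at E28. Between E37 and E31, CDX4 alone of the 3 genes with enough UMIs was apart, 12.7-fold lower at E37 (7.16 to 24.9), where 8.04% of genes were lower. CDX1 was 1.90-fold lower (1.22 to 3.03), and TBX6 had a ratio of 1.28 (0.833 to 1.96). CDX2 had 2 UMIs at E37 and 37 at E31, and T had 4 at E37 and 9 at E31. Against E24, all 5 genes were lower at E37, where 9.92% of genes were, and the fall was smallest for TBX6, at 11.1-fold (8.07 to 15.6).

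The share of cells with a UMI moved in the same way. CDX2 was found in 27.8% of E24 cells, CDX4 in 17.8%, CDX1 in 17.5%, TBX6 in 5.46% and T in 5.25%. After each cell was thinned to 2000 UMIs, so that the libraries could be compared at 1 depth, these shares were 11.1%, 7.003%, 4.88%, 1.92% and 1.82%. At E28, E31 and E37 no gene exceeded 3.40% of cells, and none exceeded 0.524% of thinned cells, where the counts were too few to order the stages. At E24, 56.3% of cells had none of the 5 genes, 25.2% had 1, 11.1% had 2 and 112 cells (1.05%) had all 5. At E28 no cell had more than 2 of them, at E31 16 cells had 2 and 1 had 3, and at E37 none had more than 1.

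To see which E24 cells carried the genes, the cells were grouped into 28 clusters with the 5 genes left out of the clustering, and a cluster was given a name, as "like", only from its markers. A floor was read from erythroid, endothelial and macrophage cells, taken here as not expressing these genes. The 110 erythroid-like cells (median 23119 UMIs) had 8.79 CPM of CDX2 and a UMI of it in 8.18% of cells, and the 303 endothelium-like cells (median 9849 UMIs) had 13.5 CPM and 8.58%. The highest of these classes or the 39 macrophage-like cells (median 12612 UMIs) stood at 3.44 CPM for CDX1, 10.0 CPM for CDX4, 2.51 CPM for T and 1.26 CPM for TBX6. At most 3.30% of cells in these classes had a UMI of CDX1, 5.28% of CDX4, 3.64% of T and 0.909% of TBX6. Levels below about 3 times these values are not read as expression here, a multiple chosen after the values were seen. The floor moved with the treatment of doublets. After removal at the rate expected for the number of barcodes, endothelium-like cells had 1.32 CPM of CDX1, 3.97 CPM of CDX2 and 1.32 CPM of CDX4, and the highest of the 3 classes stood at 2.68 CPM for CDX1, 10.7 CPM for CDX2, 1.61 CPM for CDX4, 3.68 CPM for T and 0.441 CPM for TBX6. The parts of free RNA and of doublets in the floor were not tested, and the counts of clusters above it use the values before that removal.

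Above 3 times that floor, T was found in 4 clusters, CDX4 and TBX6 in 6 each, CDX2 in 10 and CDX1 in 12. T was in the fewest clusters, with 89.7% of its E24 UMIs in those 4 clusters.

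The neuromesodermal-like cluster (cluster 15, 537 cells, median 10544 UMIs) was led by FGF17, HES7 and SOX2. It had the highest levels of CDX2, 553 CPM (534 to 572) with a UMI in 97.0% of cells, and of CDX4, 382 CPM (366 to 398) in 89.0% of cells. It also had 96.4 CPM of CDX1 (88.7 to 105), 79.1 CPM of T (72.1 to 86.5) and 19.8 CPM of TBX6 (16.4 to 23.7). The presomitic mesoderm-like cluster (cluster 17, 517 cells, median 9570 UMIs), led by FGF17, PPP1R17, HES7 and FGF3, had the highest level of TBX6, 180 CPM (169 to 192) in 68.9% of cells. Its levels of CDX2 (151 CPM) and CDX4 (95.8 CPM) were below those of cluster 15, whereas those of CDX1 (98.8 CPM) and T (68.4 CPM) had intervals that overlap with it. These 2 clusters together held 9.91% of the E24 cells but 83.7% of the TBX6 UMIs, 65.7% of those of T, 52.8% of those of CDX4, 43.4% of those of CDX2 and 33.2% of those of CDX1. Cells of these kinds were in the E24 library although the label describes removal of the caudal growth zone.

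The notochord-like cluster (cluster 26, 48 cells, median 10360 UMIs), led by SPP1, S100A6, CHRD and NOTO, had the highest level of T, 424 CPM (369 to 484) with a UMI in 89.6% of cells. CDX2 was the only CDX gene above the floor in it, at 147 CPM (116 to 184) in 70.8% of cells. CDX4 and TBX6 had 0 UMIs there, which allows up to 5.80 CPM by the limit of 3 counts, and CDX1 had 1 UMI. The 48 cells held 17.3% of all T UMIs at E24. Another cluster with SHH (cluster 18, 191 cells), led by HCRT, NKX2-8, SOX2 and FOXA2 and left unnamed, had SHH at 26.0 CPM but T at only 6.35 CPM (3.04 to 11.7).

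In the gut endoderm-like cluster (cluster 20, 437 cells), led by FGB, SPINK1 and TTR, CDX2 stood at 318 CPM (304 to 333) and CDX4 at 97.8 CPM (89.8 to 106). T was above the floor in it, at 14.97 CPM (11.96 to 18.5), and was not spread evenly. T had 17.5 CPM in the 347 gut endoderm-like cells with CDX2 and 1 UMI in those without it. T stood at 30.5 CPM in the 135 of these cells with CDX4, against 4.18 CPM in those without CDX4, a ratio of 7.28 (4.07 to 13.99). SOX2, which marks foregut within the gut tube, stood at 51.4 CPM in gut endoderm-like cells with CDX2 and 120 CPM in those without, a ratio of 0.427 (0.338 to 0.542). SOX2 did not mark cells without CDX4, which stood at 191 CPM in gut endoderm-like cells with SOX2 and 48.9 CPM in those without. These divisions within clusters were chosen after levels by cluster had been seen.

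Beyond the axial tissues the CDX genes parted. In cluster 4 (701 cells), a mesenchyme led by PITX1, HAND1, PRRX1 and HOXA10 and left unnamed because its leading genes were markers of more than 1 class, CDX2 had 143 CPM (134 to 152) and CDX4 99.6 CPM (92.5 to 107). CDX1 had 8.54 CPM in the same cells (6.55 to 10.95), below 3 times its floor. The intermediate mesoderm-like cluster 11 (441 cells, led by LHX1, PAX8, OSR1 and EYA1) likewise had 71.0 CPM of CDX2 and 77.1 CPM of CDX4 but 5.38 CPM of CDX1. TBX6 was above its floor there, at 9.17 CPM (6.71 to 12.2). Of the 3 intermediate mesoderm-like clusters, cluster 1 (137 cells, led by LHX1, VMO1, EMX2 and TFAP2A) had 31.4 CPM of CDX1 (23.1 to 41.6), while CDX2 (12.4 CPM) and CDX4 (6.53 CPM) were below their floors. Cluster 6 (362 cells, led by NR0B1, DLK1 and ALDH1A2) was low in all 3 CDX genes, with 3.35 CPM of CDX1, 18.6 CPM of CDX2 (14.5 to 23.4) and 11.6 CPM of CDX4 (8.46 to 15.5), each below 3 times its floor.

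CDX1 was above 3 times its floor in the neural tube-like, neural crest or glia-like and somite-like clusters. Its level was 92.4 CPM (82.0 to 104) in cluster 12 (neural crest or glia-like, 299 cells, led by CRABP1, S100B and TFAP2B with the dorsal neural genes WNT1 and ZIC2). It was 53.4 CPM in neural tube-like cluster 3 (914 cells), 40.8 CPM in neural tube-like cluster 2 (362 cells), and 32.2 CPM in somite-like cells (cluster 9, 1036 cells). In these 4 clusters CDX2 reached 31.5 CPM and CDX4 20.3 CPM at most, below 3 times their floors. For CDX4 this depended on the doublets, since after expected-rate removal it stood at 5.52 CPM in neural tube-like cells and 7.73 CPM in somite-like cells, above 3 times the lower floor of 1.61 CPM. Limb mesenchyme-like cells (851 cells) also had CDX1 above 3 times its floor, at 21.4 CPM. CDX2 (27.5 CPM) and CDX4 (17.2 CPM) were below 3 times their floors there. For both genes this depended on the doublets. After expected-rate removal limb mesenchyme-like cells had 36.5 CPM of CDX2 and 21.7 CPM of CDX4. Both were above 3 times the floors then, 10.7 and 1.61 CPM. Surface ectoderm-like cells (cluster 13, 569 cells) had both CDX1, at 54.4 CPM, and CDX2, at 49.1 CPM.

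**Figure D2:**
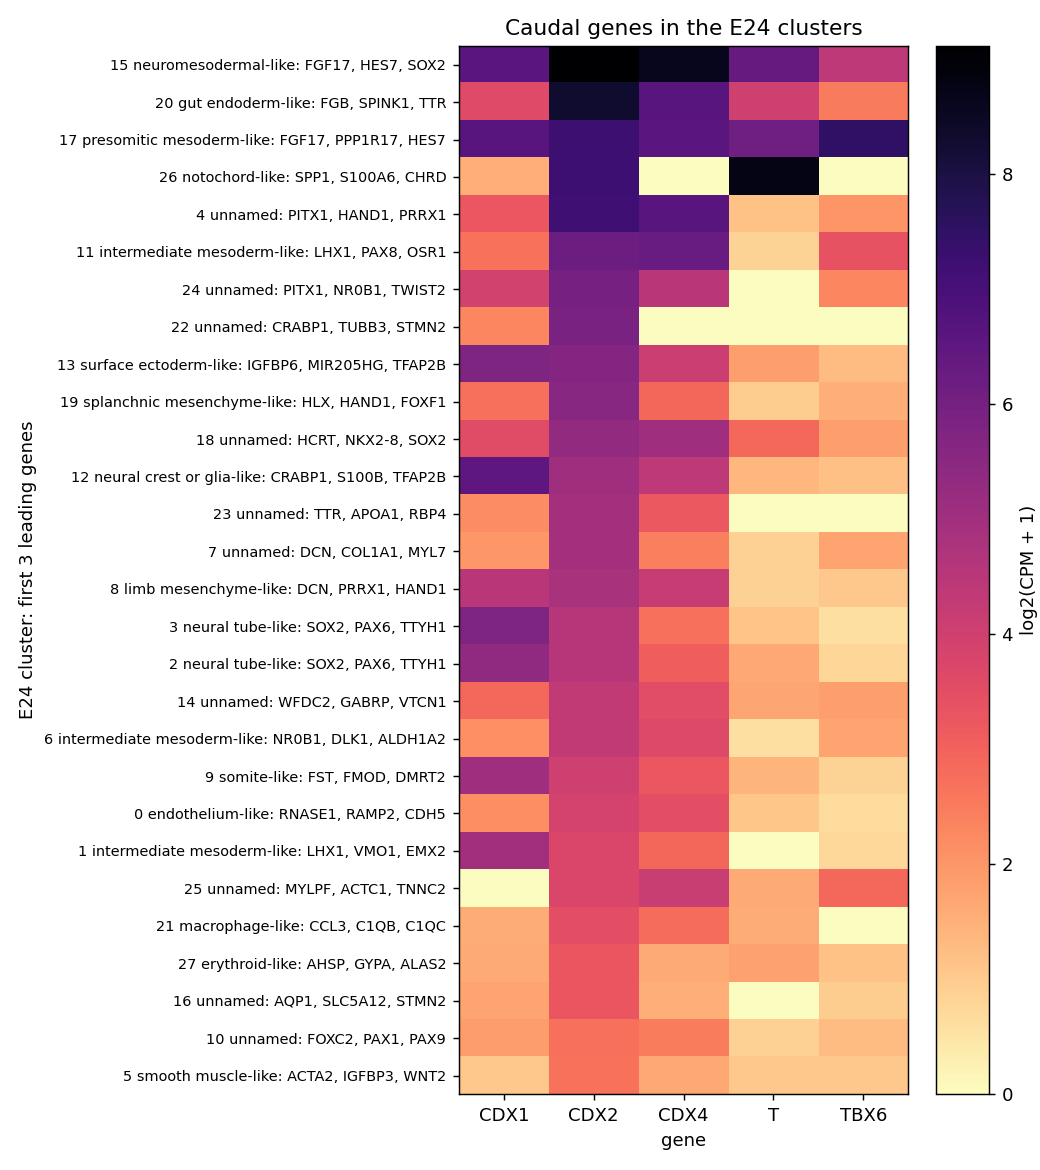
Level of each gene (color, log2 of CPM + 1) in the 28 clusters of the E24 library, ordered by CDX2 from top to bottom, with each cluster's name and first 3 leading genes. CDX2 and CDX4 are darkest in cluster 15, T in cluster 26 and TBX6 in cluster 17, while CDX1 is also high in clusters 12, 13 and 3.

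Each of the 5 genes was at a higher level in E24 cells with another of them than in cells without. Of the 20 ordered pairs, 19 had a level at least 2-fold higher in cells with the other gene than in cells without it. Among all genes, 1.24% were that much higher in cells with CDX1, 2.93% with CDX2, 1.94% with CDX4, 3.92% with T and 3.09% with TBX6. The pair below 2-fold was CDX1 in cells with CDX2, at 39.96 CPM in the 2957 cells with CDX2 and 23.5 CPM in the 7682 without, a ratio of 1.70 (1.59 to 1.83).

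The highest ratio was that of TBX6 in cells with T. TBX6 stood at 88.7 CPM in the 558 cells with T and 6.10 CPM in the cells without, a ratio of 14.5 (12.997 to 16.2). T stood at 80.2 CPM in the 581 cells with TBX6 and 6.68 CPM in the cells without, a ratio of 12.004 (10.7 to 13.4). The 228 cells with both were 40.9% of the cells with T and 39.2% of those with TBX6. CDX4 and CDX2 were nearly as close. CDX4 stood at 128 CPM in cells with CDX2 and 9.13 CPM in those without, a ratio of 13.99 (12.9 to 15.1). CDX2 stood at 260 CPM in cells with CDX4 and 36.0 CPM in those without, a ratio of 7.23 (6.93 to 7.54). CDX2 was found in 71.3% of the 1891 cells with CDX4, against 18.4% of cells without it, at median depths of 11560 and 9687 UMIs.

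Of the 558 cells with T, 441 (79.0%) had CDX2, against 25.0% of cells without T. T was in 14.9% of cells with CDX2 and 1.52% of those without, and its level was 12.2-fold higher in the cells with CDX2 (10.5 to 14.3). CDX4 was in 64.2% and CDX1 in 52.2% of the cells with T. The cells with a gene were deeper than those without, and with every cell thinned to 5000 UMIs CDX2 was still in 68.6% of cells with T and in 18.4% of cells without. TBX6 was then in 32.4% of cells with T and in 2.64% of cells without. The count of 19 pairs was the same after thinning, and also after removal of doublets at the rate expected for the number of barcodes, since the doublet caller had not worked at E24.

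**Figure D3:**
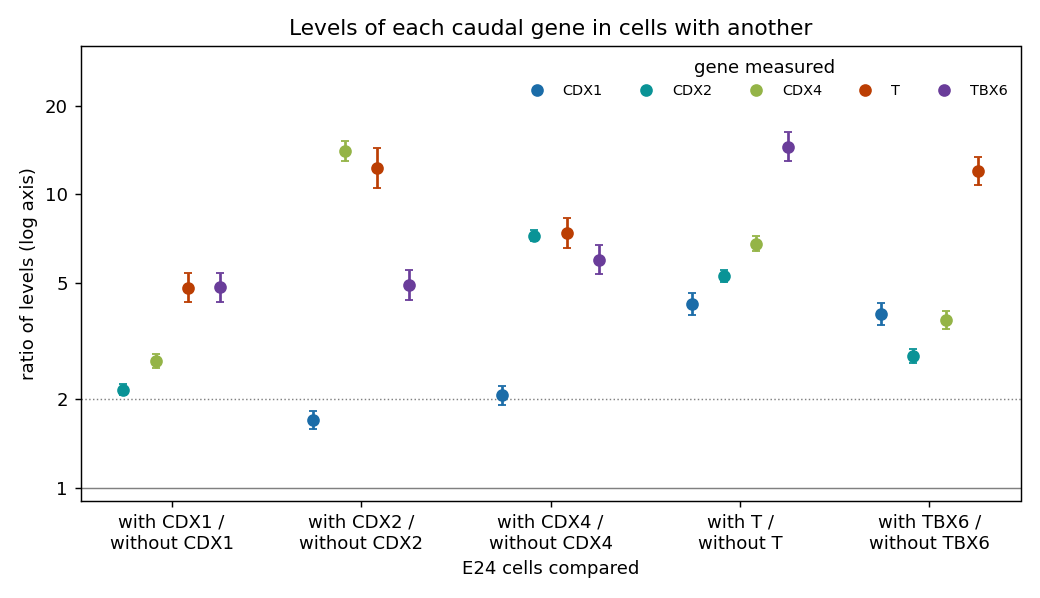
Ratio of each gene's level in E24 cells with another of the 5 genes over cells without it (log axis), grouped by the gene that divides the cells, with 95% counting intervals. All points lie above 1, and only CDX1 in cells with CDX2 lies below the dotted line at 2.

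The genes also varied together within clusters. In the neuromesodermal-like cluster TBX6 stood at 50.5 CPM in the 175 cells with T and 4.05 CPM in those without, a ratio of 12.5 (7.33 to 22.6). CDX2 in the same cells had a ratio of 1.22 (1.14 to 1.31), at 627 CPM with T and 514 CPM without. SOX2 went the other way, with 169 CPM in cells with T and 456 CPM in those without (ratio 0.370, 0.329 to 0.415). SOX2 was also lower with TBX6, at 97.6 CPM in the 72 cells with TBX6 and 402 CPM in the others (ratio 0.243, 0.193 to 0.302). In the presomitic mesoderm-like cluster the ratios between members were between 1.28 and 3.56, the largest being that of T in cells with CDX2 (94.4 against 26.5 CPM). TBX6 there had a ratio of 1.65 (1.45 to 1.88) in cells with T, below that in the neuromesodermal-like cells.

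SOX2, SHH, PAX8 and FOXF1 mark neural tissue, notochord and floor plate, intermediate mesoderm, and lateral plate mesoderm, and they divided the 5 genes in different ways. SOX2 had a UMI in 2582 of the E24 cells. CDX4 stood at 90.2 CPM in cells with SOX2 and 31.3 CPM in cells without, a ratio of 2.88 (2.73 to 3.04). CDX2 stood at 148 CPM with SOX2 and 60.5 CPM without, a ratio of 2.44 (2.34 to 2.54), and CDX1 at 46.9 CPM with it and 22.6 CPM without, a ratio of 2.07 (1.93 to 2.22). These 3 of 5 genes were higher, where 3.44% of all genes were, but with cells thinned to 5000 UMIs the ratios of CDX2 (1.94) and CDX1 (1.97) were just under 2. T was the same on both sides within counting error, at 12.1 CPM with SOX2 and 10.6 CPM without (ratio 1.14, 0.9999 to 1.29), and at 0.847 (0.668 to 1.06) with cells thinned to 5000 UMIs. TBX6 was 2.78-fold lower in cells with SOX2 (2.32 to 3.34), at 4.71 CPM with it and 13.1 CPM without, where 9.12% of genes were lower.

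By amount of SOX2, T was highest at 1 or 2 UMIs and lowest at the most. T stood at 10.6 CPM in cells with 0 UMIs of SOX2, 21.0 CPM with 1 or 2, 10.5 CPM with 3 to 5, 5.55 CPM with 6 to 10 and 3.16 CPM with 11 to 24. TBX6 had 13.1, 9.69, 3.02, 1.66 and 0.632 CPM in the same bins, while CDX2 was lowest without SOX2, at 60.5 CPM, and 132 to 158 CPM in the other bins. Of the 558 cells with T, 137 (24.6%) had SOX2 without TBX6, 192 (34.4%) had TBX6 without SOX2, 36 (6.45%) had both and 193 (34.6%) had neither. The T cells with SOX2 and without TBX6 had 466 CPM of CDX2 and 70.0 CPM of CDX1. Those with TBX6 and without SOX2 had 293 CPM of CDX2 and 154 CPM of CDX1. The T cells with neither had the highest SHH, at 43.9 CPM, against 0 UMIs of SHH in those with TBX6 and without SOX2.

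SHH had a UMI in 114 E24 cells. T alone was 2-fold or more higher in them, at 117 CPM in cells with SHH and 9.63 CPM in cells without (ratio 12.2, 10.3 to 14.3), where 9.59% of genes were higher. CDX2 had a ratio of 1.67 (1.44 to 1.92), at 136 CPM with SHH and 81.4 CPM without. CDX1, at 4.85 CPM with SHH and 28.9 CPM without, was 5.96-fold lower (2.89 to 14.8), and TBX6 was 3.21-fold lower (1.37 to 9.89), where 12.7% of genes were lower. T was in 36 of the 114 cells (31.6%), so that most SHH cells had no T UMI.

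In the 520 cells with PAX8 all 5 genes stood below the level in cells without it, and 4 by 2-fold or more, where 8.64% of genes were lower and 2.85% higher. T was 9.54-fold lower (4.83 to 22.1), at 1.21 CPM with PAX8 and 11.6 CPM without, and the level with PAX8 was within the floor. CDX4 was the exception, at 32.6 CPM with PAX8 and 46.6 CPM without (ratio 0.699, 0.607 to 0.801). In the 1004 cells with FOXF1, CDX2 and CDX4 did not differ beyond counting error. CDX2 stood at 83.1 CPM with FOXF1 and 82.0 CPM without (ratio 1.01, 0.949 to 1.08), and CDX4 at 45.1 CPM with FOXF1 and 45.9 CPM without (ratio 0.983, 0.898 to 1.07). CDX1 was 3.88-fold lower in cells with FOXF1 (3.17 to 4.80) and T 5.84-fold lower (3.94 to 9.06), where 6.85% of genes were lower and 2.75% higher. CDX1 thus parted from CDX2 and CDX4 in cells with FOXF1, as it did in cluster 4. This did not hold in every mesenchyme cluster. Splanchnic mesenchyme-like cells (758 cells) had 47.1 CPM of CDX2, above 3 times its floor. They had 6.56 CPM of CDX4 and 5.64 CPM of CDX1, both below 3 times their floors before expected-rate doublet removal. After that removal CDX1 stayed below, at 2.88 CPM, while CDX4, at 6.47 CPM, was above 3 times its lower floor of 1.61 CPM. Limb mesenchyme-like cells, given above, had CDX1 above 3 times its floor and, only before expected-rate doublet removal, CDX2 and CDX4 below.

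**Figure D4:**
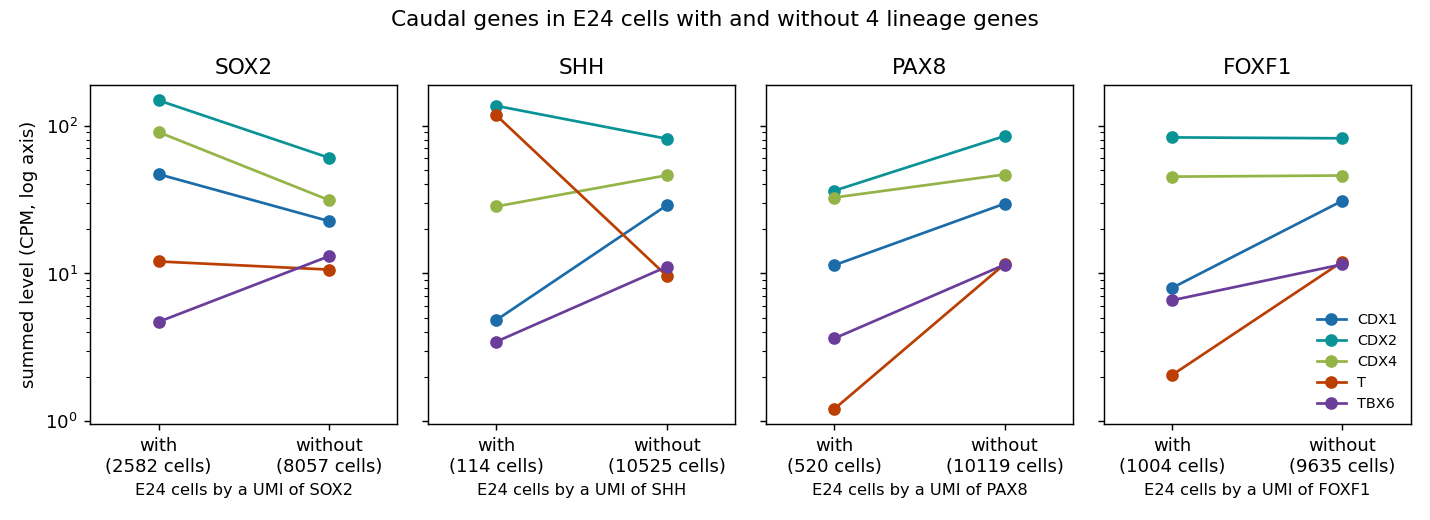
Level of each gene (CPM, log axis) in E24 cells with a UMI of SOX2, SHH, PAX8 or FOXF1, left in each panel, and in cells without, right. Points are sums over cells of 1 library and lines join the 2 groups. T is over 2-fold higher only with SHH, and CDX2 and CDX4 are level across the FOXF1 division.

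The gene lists used here were chosen with earlier results of these data known, and their counts are descriptions. Beside the shares of all genes that were higher, given above, 6.5% of genes were 2-fold or more lower in cells with CDX1, 3.71% with CDX2, 5.89% with CDX4, 8.47% with T and 10.9% with TBX6. Of 22 caudal WNT and FGF signal genes measured, 11 were 2-fold or more higher in cells with CDX1, 12 with CDX2, 14 with CDX4, 14 with T and 15 with TBX6, and 1, NOTUM, was lower with CDX2. The median log2 ratio of the list ran from 0.97 with CDX1 to 1.96 with T, beside medians over all genes between -0.04 and 0.03. FGF17, a growth zone FGF, stood at 462 CPM in cells with T and 10.5 CPM in cells without, a 44.1-fold difference. WNT3A, the ligand that sustains neuromesodermal progenitors, had 44.6 CPM in cells with T and 1.83 CPM without, and WNT8A had 27.0 CPM in cells with TBX6 and 0.525 CPM without.

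Of 13 segmentation genes measured, 8 were higher in cells with TBX6 and 1 lower, with a median log2 ratio of 2.01, against 3 higher and 3 lower with T, 2 higher with CDX4, 1 higher and 1 lower with CDX2 and 1 higher with CDX1. DLL1, the Notch ligand of presomitic mesoderm, stood at 214 CPM with TBX6 and 22.8 CPM without, and MESP2, which sets the segment border, at 66.6 CPM with it and 5.90 CPM without. HES7, the oscillator of the segmentation clock, was higher in cells with any of the 5, from 8.38-fold with CDX1 to 43.1-fold with T. Of 14 notochord genes measured, 4 were higher in cells with T (NOTO, CHRD, SHH and FOXA2) and 2 lower, with a median log2 ratio of 0.14. In cells with CDX2, 4 were higher and none lower, whereas none was higher with CDX1, CDX4 or TBX6, and 6 were lower with CDX1, 5 with CDX4 and 11 with TBX6. NOTO, a notochord homeobox gene, had 18.7 CPM in cells with T and 0.0830 CPM in those without. Of 13 hindgut endoderm genes, 7 were higher with CDX2 and 1 lower, with VIL1, a brush border gene, at 1.71 CPM with CDX2 and 0.289 CPM without. With T, 1 was higher and 7 lower, while none was higher with the other 3 genes, and 9 were lower with CDX1, 3 with CDX4 and 11 with TBX6. All 10 lateral plate genes were lower in cells with T, 8 with CDX1, 7 with TBX6 and 2 with CDX4, while 2, ISL1 and PITX1, were higher in cells with CDX2 and none lower.

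Among 10 neuromesodermal and caudal neural genes, 7 were higher in cells with CDX4, 5 with CDX2, 5 with T and 4 with CDX1. With TBX6, 4 were higher and 3 lower, SOX2 among the lower. NKX1-2, a homeobox gene of caudal neural progenitors, stood at 11.02 CPM in cells with CDX4 and 0.840 CPM in those without. Of 8 intermediate mesoderm genes, OSR1 and SALL1 were higher in cells with CDX2 and in cells with CDX4. In turn 3 (PAX8, PAX2 and LHX1) were lower with CDX2 and 1 (LHX1) with CDX4. SALL1 was also the 1 gene higher with T (2.37-fold) and with TBX6 (2.30-fold), and none was higher with CDX1. With T 5 of the 8 were lower, and with TBX6 and CDX1 3 each. SNAI1, a driver of the epithelial-to-mesenchymal transition, was 1 of 2 of 8 such genes that were higher with T and with TBX6. It stood at 87.8 CPM with TBX6 and 15.5 CPM without. Of the same 8 genes, 2 (SNAI2 and TWIST1) were lower with T and 1 (TWIST1) with TBX6. None of 7 T-box relatives measured was higher in cells with any of the 5, and 3 were lower with CDX1 and 4 with each of the others. Of 8 germ cell genes, 3 were higher in cells with T, namely NANOS3, POU5F1 and NANOG, and 2 were lower, with NANOS3 at 5.98 CPM with T and 0.728 CPM without. NANOS3 was also the 1 gene higher with TBX6 (4.03-fold), CDX2 (2.55-fold) and CDX4 (2.49-fold), and none was higher with CDX1. Lower were 4 with TBX6 and 3 with each CDX gene.

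HOX genes, the known targets of CDX proteins, differed by position in the cluster. Of 35 measured, 20 were higher in cells with CDX4, 17 with CDX2, 17 with T, 17 with TBX6 and 1 with CDX1. Summed by paralogue group, groups 6 to 9 were 2.70 to 3.27 times as high in cells with CDX2 as in cells without. Group 10 was 10.3 times as high (9.68 to 10.9), at 168 CPM with CDX2 and 16.3 CPM without, and group 11 was 6.51 times as high (5.57 to 7.62). Groups 2 to 5 had ratios between 0.910 and 1.44 in the same comparison, group 1 had 1.85 and group 13 had 2.95. The order along the cluster was thus not steady. Group 1 had ratios of 2.29 with CDX4, 2.73 with T, 2.92 with TBX6 and 1.68 with CDX1. Group 13 had 2.35 with CDX4, 1.22 with T (0.672 to 2.07), 0.897 with TBX6 (0.440 to 1.64) and 0.532 with CDX1. With CDX4 the group 10 ratio was 8.21 (7.81 to 8.63) and with T 6.11 (5.80 to 6.44). With TBX6 it was 3.16 (2.97 to 3.37), and with CDX1 1.93 (1.83 to 2.03). HOXC10 had the highest ratio among the HOX genes for each of the 5, at 35.2 CPM with CDX2 and 1.36 CPM without.

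**Figure D5:**
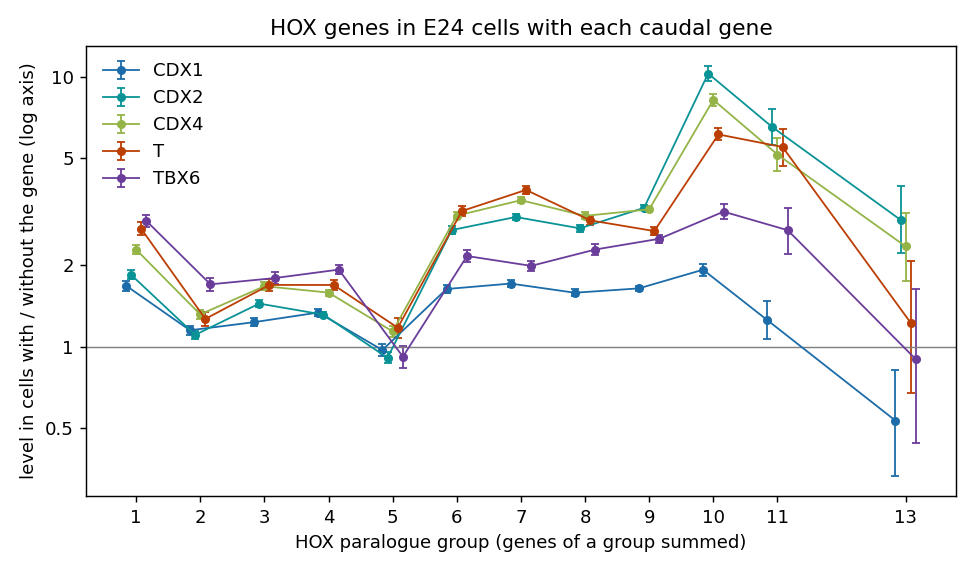
Ratio of the summed level of each HOX paralogue group in E24 cells with each caudal gene over cells without it (log axis), with 95% counting intervals. Group 12 had 0 UMIs and is left out. The ratios for CDX2, CDX4 and T peak at group 10, at 10.3, 8.21 and 6.11, and that of CDX1 stays below 2 throughout.

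Both the level ratio and the pattern over clusters were used to name the genes most like each member. By the lower bound of the level ratio, the genes nearest to CDX2 were HOXC10, FGF17, HES7, KRT23 and URAD, and those nearest to CDX4 were FGF17, HOXC10, HES7, KRT23 and NKX1-2. For CDX1 they were MIXL1, FGF17, HES7, WNT8A and KRT23. For T they were NOTO, FGF17, SPP1, HES7 and S100A6, and for TBX6 WNT8A, FGF3, FGF4, PPP1R17 and FGF17. FGF17 was among the 5 for every member, and the list for T mixed growth zone genes with genes that led the notochord-like cluster. Across the 28 clusters, which share 1 library, the highest Pearson correlations of log2(CPM + 1) were 0.905 for T with HES7, 0.845 for TBX6 with FGF4, 0.817 for CDX4 with HOXC6, 0.821 for CDX1 with ATG4C and 0.805 for CDX2 with URAD. Each is the highest picked from 8863 genes compared, so high values arise in part by selection. Among the members, CDX4 and TBX6 had the highest r, 0.725, and CDX1 and T the lowest, 0.230.

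At the later stages the few remaining UMIs were not spread evenly, a pattern noted after the values were seen. Clusters of these libraries are given by number and leading genes. At E28, 34.6% of the CDX4 UMIs were in cluster 0 (329 cells, led by DLK1, HTR1B and EYA1), at 16.8 CPM (12.9 to 21.4) against 2.97 CPM in the library. At E31, 35.0% were in cluster 0 of that library (510 cells, led by CCL26, CITED1 and EYA1), at 19.0 CPM (15.4 to 23.2). At E37, 8 of the 12 CDX4 UMIs were in cluster 15 (239 cells, led by EYA1, HOXA10 and CXCR4), at 4.29 CPM (1.85 to 8.45). EYA1, a gene of nephron progenitors, was thus among the leading genes of the cluster where CDX4 was highest at all 3 stages. The endothelium-like cells had 1, 3 and 0 CDX4 UMIs at these 3 stages.

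The highest CDX1 levels were in other clusters. At E31, 37.0% of its UMIs were in cluster 5 (420 cells), led by CALB1, DKK1, EPCAM and ALDH1A1 with LHX1, at 5.49 CPM (3.80 to 7.67), so that most were elsewhere. Endothelium-like cells had 1, 1 and 0 CDX1 UMIs at E28, E31 and E37. At E28 its 2 highest clusters, 16 and 20, at 6.85 and 6.79 CPM, also had CALB1 and TFAP2A among their leading genes. In cells with PAX8, CDX1 was 2.86-fold higher at E28 (1.82 to 4.61), at 2.54 CPM with PAX8 and 0.887 CPM without, and had a ratio of 1.96 at E31 (1.27 to 3.06). At E24 the ratio of CDX1 in cells with PAX8 was 0.384 (0.301 to 0.483), and the difference between stages was not tested. TBX6 stayed on the other side, at 0.943 CPM with PAX8 and 2.07 CPM without at E28 (ratio 0.456, 0.283 to 0.718). Of its 92 UMIs at E28, 37 were in cluster 12 (208 cells, led by DLK1, TNC and COL3A1), at 14.8 CPM (10.4 to 20.3).

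T had 14 UMIs at E28, of which 10 were in cluster 1 (292 cells, led by CCL26, ADGRG2 and LHX1), and all 9 of its E31 UMIs were in cells with PAX8. At E31, PAX8 was in 37.2% of cells without T, and the 8 cells with T were deeper, with a median of 16704.5 UMIs against 9758 UMIs in cells without it. At E37 its 4 UMIs came from 4 cells with a median depth of 26345.5 UMIs, against 6667.5 UMIs in cells without T. Of these, 3 were in the 5 cells with at least 2 of the germ cell markers NANOS3, POU5F1, DND1, DDX4 and DPPA3, whose median depth was 26722 UMIs. That is 24.2 CPM (4.98 to 70.6) in the germ cell marker cells at E37. The 9 such cells at E28 had 2 UMIs of T, the 10 at E31 had 2 and the 18 at E24 had 9, in 2 cells. T is known from mouse and human germ cells as a gene of their specification, and the counts here are too few to order the stages.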

How the data were processed

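The authors deposited raw counts of UMIs for each gene in each called cell barcode. The submitters' processing notes list Cell Ranger 2.1.0, and per the labels' protocols both v2 chemistry and v3 kits are named. Genome build and annotation: not given in the sources used here, and no reference sequence was read. The members, gene lists and markers were chosen with earlier results of these data known.

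Barcodes with fewer than 500 genes were left out (5 at E37). Scrublet in scanpy 1.11.5 called 0, 64, 7 and 5 doublets, which were removed. Under 0.5% of cells, at E24, E31 and E37, means that the caller had not worked there, so removal at an expected 0.8% per 1000 barcodes was run as an alternative. Levels are UMIs summed over cells per 1000000 UMIs, with exact Poisson intervals. Shares have exact binomial (Clopper-Pearson) intervals, and ratios exact conditional binomial ones. The ratio step was tested on simulated data drawn as independent Poisson counts. These hold no clumping of UMIs by cell, so the test did not cover spread between cells. A value of 0 allows up to 3 counts. UMIs are molecules, but intervals cover counting error only.

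Each library was clustered alone (2000 variable genes without the members, 30 principal components, 15 neighbours, Leiden resolution 1, igraph 0.11.9). A name needed at least 3 markers at 2-fold over the median cluster, 40% of its markers high, 2 among the 10 leading genes, and more of these than any other class. The choice of these limits followed a look at the data, and 10 of 28 clusters at E24 stayed unnamed. Named genes are the 5 with the highest correlation over clusters and the 5 with the highest lower bound of the level ratio, plus list members and the 4 dividing genes. Of the listed genes and markers, CYP26A1, NRARP, MSX3, PAX7 and UPK3B had no gene row under these symbols and were not analysed here.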

Additional observations from a re-analysis of the deposited data

How the results depend on the processing

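Alternatives were no doublet removal, removal at the expected rate, leaving out the 5% deepest cells, mean CPM per cell, detection from 2 UMIs, thinning, other Leiden resolutions and keeping the members for clustering. Of the 40 E24 ratios between cells with and without a gene, 25 moved beyond their interval with detection from 2 UMIs, 21 with thinning to 5000 UMIs, 15 with expected-rate removal and 4 without the deepest cells. No ratio of 2-fold or more reversed its direction, while that of T in cells with SOX2, 1.14, was 0.847 (0.668 to 1.06) with cells thinned to 5000 UMIs. At E24, CDX1 moved to 30.1 CPM and TBX6 to 11.9 CPM without the deepest cells, and as means per cell TBX6 was 11.8 CPM and CDX4 43.9 CPM. Between E31 and E28, 1 gene (TBX6) was 2-fold lower under expected-rate doublet removal, without the deepest cells and as means per cell, against 0. Thinned to 5000 UMIs, 2 of the 20 ratios by dividing gene were 2-fold or more higher, against 4. In presomitic mesoderm-like cells CDX1 was 116 CPM and TBX6 210 CPM at resolution 2, and TBX6 was 204 CPM under expected-rate doublet removal. Resolution 0.5 and clustering with the members gave no presomitic mesoderm-like cluster, and so no value. Clustering with the members and expected-rate doublet removal gave no surface ectoderm-like and no neural crest or glia-like cluster. Resolution 2 gave no surface ectoderm-like cluster either. The cause of these moves was not tested. Shares of cells depend on depth by construction. T at E28 to E37 and CDX2 at E37 rest on 14 UMIs or fewer. No paired analysis was possible because each stage has 1 library and no test was run.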
